A study of Mus musculus with 884 samples.

Results

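Mouse chromosome 11 was described by the time in S phase at which its 80 kb bins were replicated, in single embryonic stem cells, in their descendants over a 7-day differentiation and in epiblast stem cells. It was covered by 1523 of the 30890 autosomal bins of the deposited table of calls (mm9), and 1484 of the 1523 had a value in all 8 groups compared. The chromosome was chosen from earlier results of the same data, on the high share of its bins replicated by mid S phase and on its few bins that moved later, so these 2 properties are given below as description and support nothing further.

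The method was Repli-seq of single cells: each was sorted by DNA content, its genome was amplified and sequenced, and each bin was called replicated or not yet replicated from its copy number. CBMS1 cells, a female hybrid (CBA x MsM) embryonic stem cell line, were grown in 2i/LIF (d0), carried to epiblast-like cells over 2 days and then kept as floating aggregates without added factors, and were sampled on days 2 to 7 (d2 to d7). The other group was female epiblast stem cells (EpiSCs) of the strain C57BL6, marked passage 5 in their titles and grown with Activin and FGF. No label gave a transgene or deletion in any group. State and strain therefore cannot be told apart wherever EpiSCs are compared with CBMS1 cells, and replication calls carry no expression markers by which the labelled cell types could be checked.

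DNA is replicated in a reproducible order. Large domains with many active genes are usually copied in the first part of S phase and gene-poor domains at the end, and domains that change place in this order do so as blocks when cells differentiate. Mouse chromosome 11 is known as a gene-rich chromosome that carries, among others, the Hoxb cluster of body-axis regulators, the tumour suppressors Trp53 and Brca1 and the alpha-globin genes. In the RefSeq gene list used here for names only (GRCm38.p6, another build than the calls), chromosome 11 held 1609 protein-coding gene names, or 13.2 per Mb of the bin table, the second highest density of the 19 autosomes. Genes were not placed on bins, so regions are given by position.

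A cell's replication score is the percentage of its called autosomal bins that were replicated. Compared were the 293 S-phase cells scoring between 40 and 70% (the window cells), in which early bins are mostly copied and late bins mostly not; the nearest scores inside and outside these limits were 40.1% and 39.8% at the lower end and 69.8% and 70.1% at the upper end. The window cells numbered 59 (d0), 35 (d2), 13 (d3), 18 (d4), 20 (d5) and 21 (d6); those of d7 were 66 of the present and 35 of a previous series, and 26 were EpiSCs, with mean scores between 52.3% (d2) and 57.1% (EpiSC). Of the 59 d0 window cells, 50 were of the previous series. All window cells of d2 to d6 and all 26 EpiSCs were of the present series. State and series therefore cannot be fully told apart where these groups are compared with d0. The median window cell had calls in 1486 chromosome 11 bins and the thinnest in 1089. Separate cultures are not named in the labels, so each group counts as 1 sample and no test was run. The exact Clopper-Pearson 95% intervals given for numbers of cells cover counting error only. For a count of 0, the largest share allowed was instead taken as 3 cells divided by the number of cells, which is lower than the upper end of such an interval. In 8 window cells, 2 of d7, 1 of d4, 1 EpiSC and 4 of the 59 of d0, the calls on chromosome 11 ranked its bins poorly against the mean profile (area under the curve below 0.8). Values include these cells; the chromosome-wide counts of d7 and EpiSC against d0 are also given without them.

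Chromosome 11 was the most replicated autosome of the window cells in all 8 groups. The share of a bin is the percentage of a group's window cells with a call that had replicated it. The mean share over chromosome 11 bins was 70.7% on d0, 68.8% on d2, 67.03% on d3, 67.97% on d4, 72.4% on d5, 71.99% on d6, 73.9% on d7 and 72.8% in EpiSCs. Over the other autosomes the mean lay between 51.5% (d2) and 56.3% (EpiSC), so that chromosome 11 stood 14 (d3) to 18.4 points (d6 and d7) above them. The next chromosome was chromosome 19 in 6 of the 8 groups (between 62.3% and 68.4%) and chromosome 9 at d5 and in EpiSCs (65.5% and 68.2%), and the lowest was chromosome 3 or 16. Without the 8 cells that did not follow the mean profile, the means were 74.3% at d7 and 72.4% at d0.

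The same order was seen within single cells. Chromosome 11 was the most replicated of the 19 autosomes in 240 of the 293 window cells (81.9%), against 21 for chromosome 19 and 6 for chromosome 9. The median difference between chromosome 11 and the other autosomes within a window cell was 18.8 points at d7, 16.4 points in EpiSCs and 16.2 points at d0. Of the 700 S-phase cells scoring from 5 to 95%, 688 had chromosome 11 ahead and 12 had it behind.

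**Figure D1:**
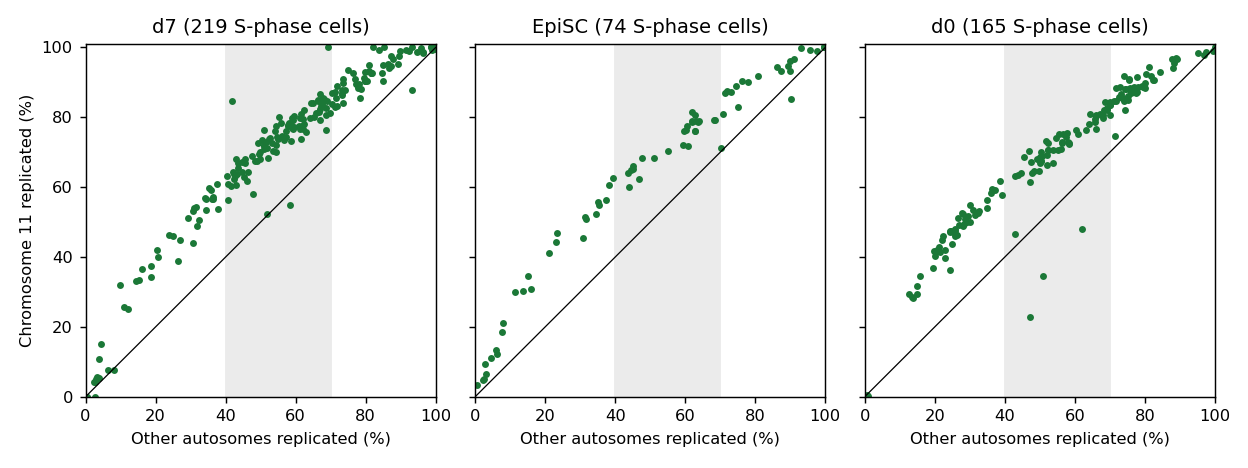
Percentage of called chromosome 11 bins replicated (vertical axis) against the percentage of called bins replicated on the other autosomes (horizontal axis) in each S-phase cell at d7, in EpiSCs and at d0. Each point is 1 cell, the line marks equal percentages and the grey band marks 40 to 70% on the horizontal axis. Nearly all points lie above the line, and 3 d0 cells inside the band lie far below it.

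At d7 and d0 the mean lead of chromosome 11 was widest at scores of 20 to 40% and narrowed towards the end of S phase. At d5 the mean lead was wider in the window cells (17.7 points) than at 20 to 40% (15.8 points). The 12 d5 cells of 20 to 40% included a cell with a difference of -28.8 points. By medians the d5 lead was 18.1 points in the window cells and 19.9 points at 20 to 40%, the order of the means at d7 and d0. At d7, chromosome 11 was ahead by a mean of 14.2 points in the 10 cells with scores of 5 to 20%, by 20.3 points in the 23 cells of 20 to 40%, by 18.4 points in the window cells, by 13.5 points in the 38 cells of 70 to 85% and by 7.28 points in the 17 cells of 85 to 95%. At d0 the same steps gave 16.2, 21.3, 14.5, 11.5 and 7.47 points, the first in 6 cells, the second in 42, the fourth in 45 and the last in 5. A percentage that nears 100% leaves less room for a lead. In the 66 cells of all groups with scores of 5 to 20%, 347 of 1486 chromosome 11 bins (23.4%) were already replicated in at least 50% of cells, against 6.98% of bins on the other autosomes. The first stretches included chr11:100160001-103040000, chr11:115120001-117920000 and chr11:96560001-99040000, with mean shares of 69.2%, 70.9% and 74.3% in these cells. At the other end, in the 64 cells with scores of 85 to 95%, 17 bins (1.14%) were still unreplicated in at least 50% of cells, against 7.72% on the other autosomes. The one stretch of at least 400 kb among them was chr11:91440001-92560000, with a mean share of 43.1%.

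The chromosome is laid out as long early domains separated by shorter late ones, and the later-replicating part lies towards its start. In window cells of d7, runs of at least 5 bins with a share above 50% made 17 early domains over 90.8 Mb, and runs at or below 50% made 11 late domains over 26.4 Mb. In EpiSCs there were 20 early domains over 87.5 Mb and 16 late ones over 29.8 Mb, and at d0 there were 19 early domains over 84.2 Mb and 18 late ones over 32.9 Mb. The mean share in the first of 4 equal parts of the chromosome (up to base 30400000) was 55.4% at d7 and 57.2% at d0, and in the last of them (from base 91360001) it was 87.1% at d7 and 80.8% at d0. The first part was thus slightly less replicated at d7 than at d0, and the last part more.

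**Figure D2:**
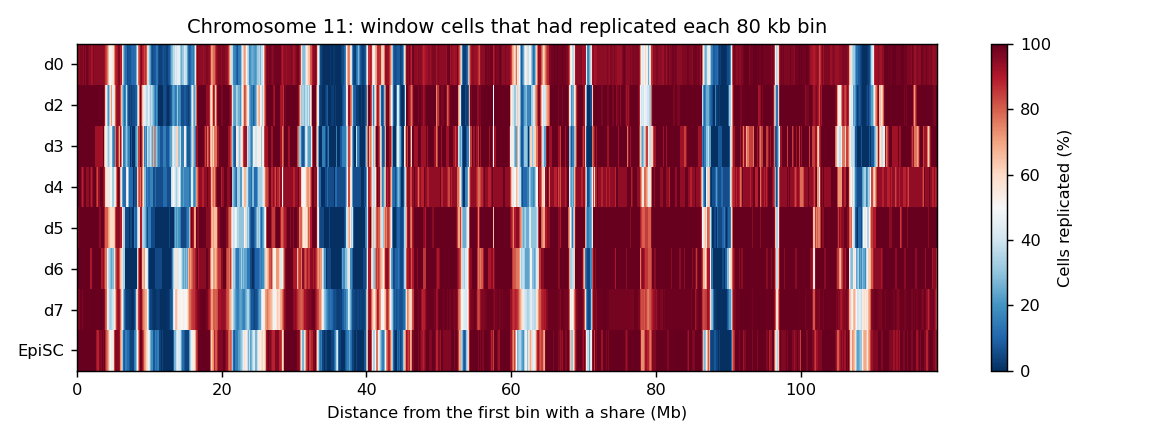
Percentage of window cells that had replicated each 80 kb bin of chromosome 11 (colour, 0 to 100%) along the chromosome, with position as the distance in Mb from the first bin with a share, for d0 to d7 in order and then EpiSCs. Red blocks that hold through all 8 rows are the constant early domains, and blue blocks the constant late ones. Bins that moved by at least 30 points lie outside both.

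Bins that kept 1 class throughout made up 53.7% of the chromosome, against 39.1% of the other autosomes. Early in all 8 groups (a share of at least 80% in each) were 687 of 1484 bins (46.3%), against 25.8% of all autosomal bins, and late in all 8 groups (at most 20% in each) were 110 bins (7.41%), against 14.1%. The early bins lay mostly in the distal part of the chromosome, with 452 of the 762 bins beyond base 60880000 and 235 of the 722 before it, while 86 of the 110 late bins lay before it. With limits of 90% and 10%, 437 bins remained early and 45 late.

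The longest constant early domain was chr11:82480001-88960000 (6480 kb), replicated in a mean of 98.04% of window cells at d7, 99.2% of EpiSCs and 96.1% of cells at d0. It was followed in length by chr11:74480001-78880000 (4400 kb), chr11:114800001-118560000 (3760 kb), chr11:3120001-6720000 (3600 kb), chr11:52720001-55440000 (2720 kb), chr11:68320001-70960000 (2640 kb) and chr11:100320001-102800000 (2480 kb). The eighth place was shared by chr11:50160001-52480000 and chr11:60480001-62800000 (2320 kb each).

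Of the constant late domains, 5 reached 800 kb. The longest was chr11:14080001-15840000 (1760 kb), replicated in a mean of 1.13% of window cells at d7, 3.15% of EpiSCs and 5.32% of cells at d0. Next came chr11:91280001-92720000 (1440 kb), which had a mean share of 0.495% at d7, 0.641% in EpiSCs and 2.92% at d0 and contains the stretch that was last to be copied in the cells near the end of S phase. The others were chr11:37520001-38720000 (1200 kb), chr11:10080001-11040000 (960 kb) and chr11:41920001-42880000 (960 kb). The third of these 5 was the one with the highest mean share at d7, at 10.3%, against 0.791% at d0.

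Between d7 and d0, chromosome 11 gained early replication about as often as the autosomes at large and lost it less often. A bin was counted as moved when its share differed by at least 30 points. Of the 1486 chromosome 11 bins compared, 7.81% (9.28 Mb) were earlier in d7, against 7.75% of all autosomal bins, and 41 bins (2.76%, 3.28 Mb) were later in d7, against 7.71%. The share of bins that moved later was the lowest of the 19 autosomes, whereas the share that moved earlier ranked 10 of 19, so the data went against calling the chromosome stable where gains are concerned. The earlier bins had a mean share of 71.5% at d7 and 24.5% at d0, and the later bins 44.2% at d7 and 83.5% at d0. A further 19 bins had gains of 25 to 30 points and 23 of those counted had gains of 30 to 35 points; likewise 19 bins had losses of 25 to 30 points and 15 of the 41 had losses of 30 to 35 points.

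Since most of the chromosome is early, fewer of its bins can gain. Of the 509 chromosome 11 bins with a d0 share low enough to rise by 30 points, 22.8% did so, against 14.6% on the other autosomes. Of the 1188 bins with a d0 share high enough to fall by 30 points, 41 did so (3.45%), against 12.3%. These fractions use the same d0 cells to pick and to measure the bins.

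The lengths that moved differed with the cells compared. Without the cells that did not follow the mean profile of chromosome 11, 8.96 Mb were earlier and 3.28 Mb later. Cells taken from a previous series, 35 at d7 and 50 of the 59 at d0, gave 11.12 Mb earlier (9.35%, against 10.1% of all autosomal bins in the same cells) and 2.64 Mb later (2.22%, against 7.86%) when compared alone. Cells of the present series, 66 at d7 and 9 at d0, gave 28.56 Mb earlier (24.04%, against 12.4%) and 8.16 Mb later (6.87%, against 15.1%). Of these 9 d0 cells, 4 were among those whose chromosome 11 calls ranked poorly, and without such cells the present series gave 6.32 Mb earlier (5.32%, against 5.07%) and 8.96 Mb later (7.54%, against 13.2%) from 5 cells at d0. In that last choice of cells more of the chromosome was later than earlier, the opposite of the balance in all window cells, while the later share was below that of all autosomes in each of these choices. Few later bins were a reason for choosing the chromosome, and these choices are parts of the same window cells, so this is description only.

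**Figure D3:**
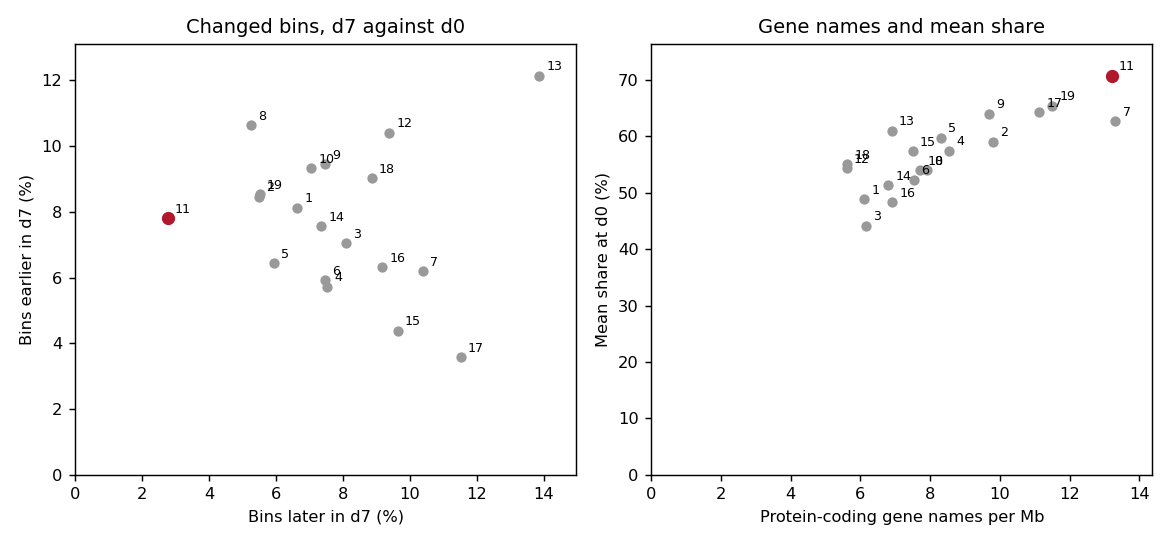
Left, percentage of compared bins that were earlier in d7 than in d0 (vertical axis) against the percentage that were later (horizontal axis) for each autosome, labelled by number; chromosome 11 (red) is at 7.81% and 2.76%, furthest to the left. Right, mean share at d0 against protein-coding gene names per Mb, with chromosome 11 at 70.7% and 13.2 names per Mb.

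Across the 19 autosomes, the mean share at d0 went with the density of gene names, with a Pearson's r of 0.81 and a Spearman's rho of 0.75. The points share the same 59 cells, and gene names come from another build than the bins, so this is given as a description. Chromosome 7, with a slightly higher density than chromosome 11, had a lower mean share.

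The same bins were then followed in cells that had not been used to choose them, the S-phase cells of the same groups outside the window. In early S phase (scores of 5 to below 40%, 33 cells at d7 and 48 at d0, both with a mean score of 26.7%), the earlier bins had a mean share of 19.6% at d7 and 1.02% at d0; 2 of these bins had equal shares and all others were higher at d7. In late S phase (scores above 70 to 95%, 55 cells at d7 and 50 at d0), they had 97.4% at d7 and 72.9% at d0, and 94 bins were higher and 4 lower at d7. The mean scores there were 80.7% at d7 and 77.8% at d0, and the rest of the chromosome differed by 1.63 points.

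The 41 later bins showed the opposite in these cells. Their mean share in early S phase was 7.98% at d7 and 35.1% at d0, and 39 of 41 bins were lower at d7. In late S phase it was 90.6% at d7 and 97.8% at d0, with 32 bins lower and 9 equal. At d0 these bins were thus replicated in part of the cells before mid S phase, and at d7 in few.

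**Figure D4:**
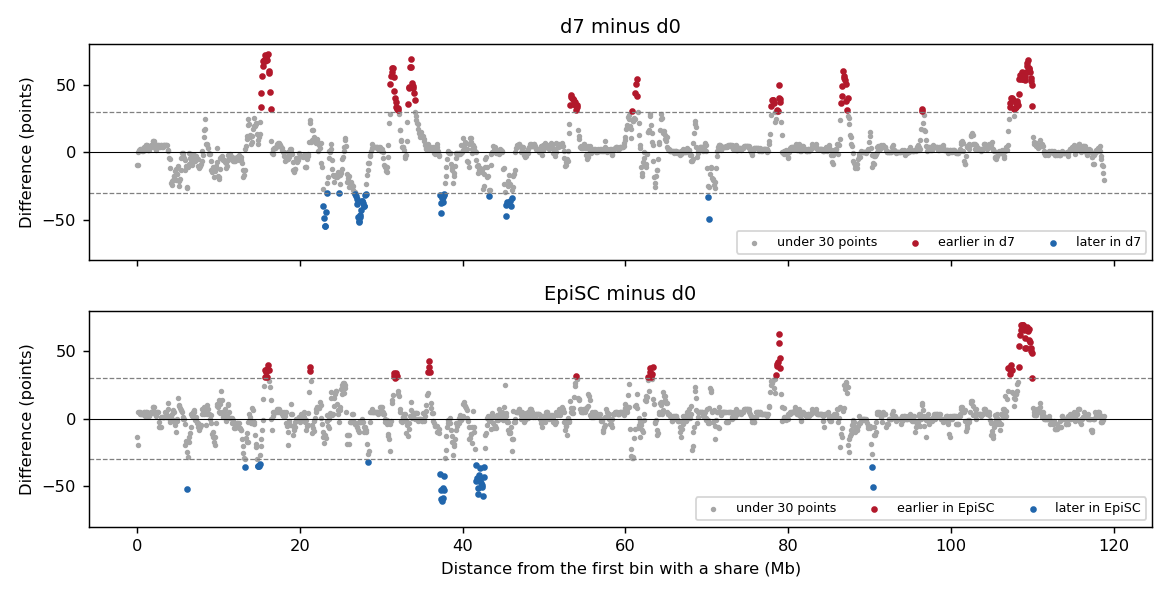
Difference in share, in points, for each chromosome 11 bin along the chromosome (distance in Mb from the first bin with a share), for d7 minus d0 above and EpiSC minus d0 below. Bins at least 30 points higher are red and at least 30 points lower blue (dashed lines). In the upper panel all blue bins but 2 lie before base 60880000, and the red ones lie on both sides of it.

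The moved bins formed blocks. Of the 9.28 Mb that were earlier, 8.72 Mb lay in 9 regions of at least 400 kb, and of the 41 later bins, 31 lay in 3 such regions. The remainder were runs of 1 to 4 bins, 3 earlier and 5 later. All regions of at least 400 kb are described here in order along the chromosome. For a region, a cell counted once over 50% of its called bins there were replicated. Each region, here and in the EpiSC comparisons below, was chosen by its difference in the same window cells that are counted. The counts of the groups compared therefore lie apart by choice, and the intervals make no allowance for it.

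Earlier region 1 was chr11:18160001-19440000 (1280 kb) and had the largest mean gain of the 9 in all window cells, 59.4 points. In present-series cells its gain was 32.2 points, and 41.2 points in those that followed the mean profile of chromosome 11, where it was not the largest. It was replicated in 83 window cells at d7 (82.2%, interval 73.3 to 89.1%), in 10 of 26 EpiSCs (38.5%, 20.2 to 59.4%) and in 5 of 59 cells at d0 (8.47%, 2.81 to 18.7%). Its mean share was 20.6% on d0, 24.5% on d2, 26.4% on d3, 26.04% on d4, 65.9% on d5, 75.6% on d6 and 79.95% on d7. The change thus lay mostly between d4 and d5. The 400 kb that follow it were early at both ends of the course, with 96.2% at d7 and 93.9% at d0, so at d7 the region joined an early domain next to it.

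Earlier regions 2 and 3 lay 1.12 Mb apart. Region 2, chr11:34080001-35120000 (1040 kb), was replicated in 96 window cells at d7 (95.05%, 88.8 to 98.4%), in 22 of 26 EpiSCs (84.6%, 65.1 to 95.6%) and in 26 of 59 cells at d0 (44.1%, 31.2 to 57.6%). Region 3, chr11:36240001-37120000 (880 kb), was replicated in 67 window cells at d7 (66.3%, 56.2 to 75.4%), in 4 of 26 EpiSCs (15.4%, 4.36 to 34.9%) and in 1 of 59 cells at d0 (1.69%, 0.0429 to 9.09%). Region 3 stayed between 8.08% and 13.6% in mean share through d5 and was at 57.6% at d6. It extended a neighbouring early stretch: the 400 kb before it had 89.7% at d7 and 85.4% at d0, and the 400 kb after it 24.95% at d7 and 0.339% at d0.

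Earlier region 4, chr11:56160001-57120000 (960 kb), reached an intermediate level. It was replicated in 44 window cells at d7 (43.6%, 33.7 to 53.8%), in 5 of 26 EpiSCs (19.2%, 6.55 to 39.4%) and in 1 of 59 cells at d0 (1.69%, 0.0429 to 9.09%). At d7 the region was wholly replicated in 38 cells and wholly unreplicated in 17, and 46 cells were split within it.

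Earlier regions 5 and 6 were neighbours on either side of a gap of 320 kb. Region 5, chr11:80880001-81280000 (400 kb), was replicated in 85 window cells at d7 (84.2%, 75.6 to 90.7%), in 19 of 26 EpiSCs (73.1%, 52.2 to 88.4%) and in 26 of 58 cells at d0 (44.8%, 31.7 to 58.5%). Region 6, chr11:81600001-82080000 (480 kb), was replicated in 75 window cells at d7 (74.3%, 64.6 to 82.4%), in 23 of 26 EpiSCs (88.5%, 69.8 to 97.6%) and in 18 of 58 cells at d0 (31.03%, 19.5 to 44.5%). At d7 1 early domain ran without a break from chr11:74000001-90480000 (16480 kb), whereas at d0 the same stretch held the separate early domains chr11:73920001-80880000 and chr11:82080001-89440000. Unbroken early domains over both regions were also found at d5 (chr11:74080001-89280000), at d6 (chr11:74080001-90480000) and in EpiSCs (chr11:73920001-89360000).

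Earlier region 7, chr11:89440001-90320000 (880 kb), forms the distal end of that d7 domain. It was replicated in 86 window cells at d7 (85.1%, 76.7 to 91.4%), in 14 of 26 EpiSCs (53.8%, 33.4 to 73.4%) and in 24 of 59 cells at d0 (40.7%, 28.1 to 54.3%). Its mean share was lower at d2 (21.04%) and d3 (23.1%) than at d0 (40.1%) and higher from d5 (65.5%) on. Only 2 window cells at d7 had none of it replicated, against 18 of 59 at d0.

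Earlier regions 8 and 9 were separated by 80 kb, and region 9 was the longest of the 9. Region 8, chr11:110160001-110720000 (560 kb), was replicated in 63 window cells at d7 (62.4%, 52.2 to 71.8%), in 13 of 26 EpiSCs (50.0%, 29.9 to 70.1%) and in 13 of 59 cells at d0 (22.03%, 12.3 to 34.7%). Region 9, chr11:110800001-113040000 (2240 kb), was replicated in 59 of 100 cells at d7 (59%, 48.7 to 68.7%), in 17 of 26 EpiSCs (65.4%, 44.3 to 82.8%) and in 1 of 59 cells at d0 (1.69%, 0.0429 to 9.09%). Outside the window, region 9 was replicated in 53 of 55 late S-phase cells at d7, 18 of 18 EpiSCs and 19 of 50 cells at d0, and in 2 of 33 early S-phase cells at d7, 0 of 19 EpiSCs and 0 of 48 at d0, where the counts of 0 allow shares of up to 15.8% and 6.25%. At d7 it was therefore copied around mid S phase, and in most d0 cells after it.

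Later region 1, chr11:25840001-26320000 (480 kb), was replicated in 14 window cells at d7 (13.9%, 7.79 to 22.2%), in 13 of 26 EpiSCs (50.0%, 29.9 to 70.1%) and in 39 of 59 cells at d0 (66.1%, 52.6 to 77.9%). It lay in a late neighbourhood, with flanks of 21.4% and 31.3% at d7 and 28.5% and 40.3% at d0. Its mean share was highest at d3, at 87.2% in 13 cells.

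Later region 2, chr11:29760001-31120000 (1360 kb), was the longest loss and began as a fully early stretch. It was replicated in 60 window cells at d7 (59.4%, 49.2 to 69.1%), in 25 of 26 EpiSCs (96.2%, 80.4 to 99.9%) and in 58 of 59 cells at d0 (98.3%, 90.9 to 99.96%). Its mean share was 97.5% on d0, 98.5% on d2, 96.7% on d3, 89.5% on d4, 93.5% on d5, 63.3% on d6 and 57.7% on d7. In early S-phase cells it was replicated in 4 of 33 at d7, 7 of 19 EpiSCs and 29 of 48 at d0, and in late S-phase cells in all 55 at d7, all 18 EpiSCs and all 50 at d0.

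Later region 3, chr11:40160001-40800000 (640 kb), was an island between late flanks, which had 13.5% and 9.31% at d7 and 12.5% and 20.7% at d0. It was replicated in 34 window cells at d7 (33.7%, 24.6 to 43.8%), in 4 of 26 EpiSCs (15.4%, 4.36 to 34.9%) and in 43 of 59 cells at d0 (72.9%, 59.7 to 83.6%). Against the same d0 cells it differed by -35.2 points at d7 and by -52.3 points in EpiSCs.

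The 12 regions kept their direction under the 7 other choices of cells tried, but not all kept their size. All these choices are parts of the window cells that chose the regions, so a kept direction was largely given in advance. With cells of the previous series alone, all 12 passed 30 points. With cells of the present series alone, 8 did so, earlier regions 4, 6 and 8 and later region 3 having 27.2, 19.1, 9.31 and -25 points. Among present-series cells that followed the mean profile (5 at d0), 8 did so, earlier regions 2, 5, 6 and 8 having 9.42, 23.1, 5.36 and 7.77 points.

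**Figure D5:**
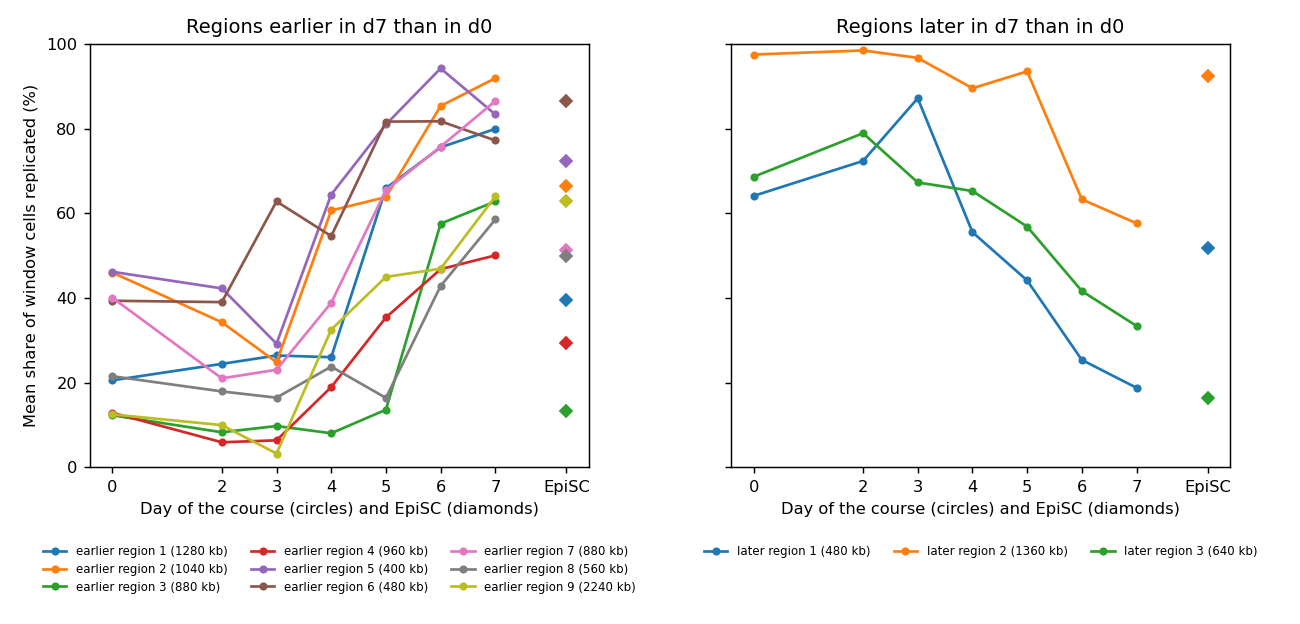
Mean share of window cells that had replicated each region, in percent, by day (circles joined by lines) and in EpiSCs (diamonds), for the 9 regions earlier in d7 than in d0 (left) and the 3 later ones (right), numbered in order along the chromosome. In the left panel 6 regions stayed past the midway point from d5 on and 3 from d6 on. Of the 6, earlier region 6 was also past it at d3 but not at d4. In the right panel all 3 stayed past it from d6 on.

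Over the course, the mean share of the earlier bins was higher on each day after d3, and that of the later bins lower on each day after d3. The earlier bins had a mean share of 24.5% on d0, 19.4% on d2, 17.7% on d3, 33.4% on d4, 50.9% on d5, 62.7% on d6, 71.5% on d7 and 50.1% in EpiSCs. The 41 later bins had 83.5% on d0, 84.5% on d2, 84.4% on d3, 74.8% on d4, 71.6% on d5, 51.6% on d6, 44.2% on d7 and 68.3% in EpiSCs. On the other autosomes the bins later by the same rule had 77.4% at d0, 59.5% at d2 and 51.3% at d4, a decline by d2 that the mean of the 41 bins of chromosome 11 did not have. Those 41 bins lay in 8 runs, which went both ways by d2. For example, chr11:73120001-73280000 fell from 83.9% at d0 to 54.3% at d2, and later region 3 rose from 68.6% to 78.9%. A mean share from d5 on past the midway point between d7 and d0 was found for 6 earlier regions, and from d6 on for the other 3 and for all 3 later regions. Earlier region 6 was also past its midway share of 58.3% at d3 (62.8% in 13 cells), but not at d4 (54.6%). Earlier region 5 was at 64.4% at d4, close to its midway share of 64.8%.

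In single cells, more of the earlier regions were replicated from d5 on than before. The median number of the 9 earlier regions replicated per window cell was 2 on d0, 1 on d2, 1 on d3, 2.5 on d4, 5 on d5, 7 on d6, 7 on d7 and 5 in EpiSCs. All 9 were replicated in 5 of 21 cells at d6, 19 of 100 at d7, 1 of 26 EpiSCs and in 0 of 58 cells at d0, which allows a share of up to 5.17%; no cell at d2, d3, d4 or d5 had all 9. None of the 3 later regions was replicated in 32 window cells at d7 and in 0 of 59 at d0, which allows a share of up to 5.08%. These numbers also move with a cell's score within the window.

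Set against d0 day by day, losses outnumbered gains at d2 and d3 and gains outnumbered losses at d5 and d6, and the balance at d4 differed with the choice of cells. For d2, 17 bins were earlier (1.14%, against 1.54% of all autosomal bins) and 68 later (4.58%, against 6.98%). For d3, from 13 cells, 30 were earlier (2.02%, against 5.06%) and 7.14% (8.48 Mb) later, against 8.79%. For d4, 14 were earlier (0.942%, against 3.23%) and 35 later (2.36%, against 7.02%). For d5, 60 were earlier (4.04%, against 4.4%) and 30 later (2.02%, against 6.15%), and for d6, 86 were earlier (5.79%, against 6.11%) and 53 later (3.57%, against 8.81%). All these days share the d0 cells, of which 50 of 59 were of the previous series. The window cells of d2 to d6 were all of the present series, so day and series cannot be fully told apart in these counts. At d2, d3 and d4 the window cells had mean scores 2.63 to 3.98 points below those of d0, and cells matched in score gave 2.08 Mb earlier and 3.36 Mb later for d2, 4.88 and 8.4 Mb for d3, and 3.2 and 2 Mb for d4. At d4 gains thus exceeded losses in matched cells, as with scores of 45 to 65% (2.56 Mb earlier and 1.6 Mb later), the opposite of all window cells.

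EpiSCs differed from d0 cells at fewer chromosome 11 bins. Earlier in EpiSCs were 62 of 1486 bins (4.17%, against 7.36% of all autosomal bins), and later were 31 (2.09%, against 6.34%); both shares were the lowest of the 19 autosomes. Of the bins with a d0 share low enough to rise by 30 points, 12.2% did so, against 14.2% on the other autosomes, and of those high enough to fall by as much, 2.61% did so, against 10.1%. Without the cells that did not follow the mean profile the counts were 57 and 36. All 26 EpiSCs were of the present series and most d0 cells of the previous one. State and series cannot be fully told apart here. The largest gain was chr11:111280001-113040000 (1760 kb), replicated in 19 of 26 EpiSCs (73.1%, 52.2 to 88.4%) and 1 of 59 cells at d0 (1.69%, 0.0429 to 9.09%). It lies inside earlier region 9 of the d7 comparison. The others of at least 400 kb were chr11:81440001-82080000 (44.2 points), chr11:110000001-110480000 (36.8 points), chr11:18640001-19120000 (34.7 points) and chr11:34480001-34960000 (31.9 points). The last of these was under 30 points in 3 of its 4 alternatives, with 27.6 points in cells matched in score and 28.7 points without the cells that did not follow the mean profile of chromosome 11.

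Of the losses in EpiSCs, 2 reached 400 kb. The region chr11:40160001-40800000 is later region 3, given above. The region chr11:44560001-45680000 (1120 kb) was replicated in 8 of 26 EpiSCs (30.8%, 14.3 to 51.8%) and in 44 of 59 cells at d0 (74.6%, 61.6 to 85.02%); its mean share in d7 cells was 64.6%. The 5 longest of the shorter runs were chr11:17760001-18080000 (-34.5 points), chr11:93280001-93440000 (-43.1 points) and the single bins chr11:9120001-9200000 (-52.3 points), chr11:16160001-16240000 (-35.6 points) and chr11:31280001-31360000 (-32.1 points). With scores of 45 to 65% the last 2 differed by -26.2 and -28.6 points.

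Between d7 cells and EpiSCs, 80 of 1486 bins were earlier in d7 (5.38%, against 4.9% of all autosomal bins) and 45 later (3.03%, against 5.74%). Among runs of at least 400 kb, the largest differences on the earlier side were chr11:36240001-37120000 (49.5 points), chr11:33920001-34480000 (49.0 points), chr11:89360001-90000000 (45.9 points), chr11:17440001-19200000 (43.9 points) and chr11:63600001-64560000 (41.03 points). The fourth of these, 1760 kb long, was replicated in 67 window cells at d7 (66.3%, 56.2 to 75.4%) and in 2 of 26 EpiSCs (7.69%, 0.946 to 25.1%). The last was replicated in 71 window cells at d7 (70.3%, 60.4 to 78.98%) and in 7 of 26 EpiSCs (26.9%, 11.6 to 47.8%).

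On the later side, 2 regions reached 400 kb. The region chr11:30000001-30960000 (960 kb), inside later region 2, was replicated in 50 window cells at d7 (49.5%, 39.4 to 59.6%) and in 25 of 26 EpiSCs (96.2%, 80.4 to 99.9%). The region chr11:73120001-73600000 (480 kb) was replicated in 11 window cells at d7 (10.9%, 5.56 to 18.7%) and in 13 of 26 EpiSCs (50.0%, 29.9 to 70.1%). The 5 longest shorter runs were chr11:48160001-48480000 (-45.3 points), chr11:27200001-27520000 (-37.4 points), chr11:25920001-26240000 (-36.02 points), chr11:38720001-39040000 (-34.5 points) and chr11:28000001-28320000 (-32.1 points). Of these, chr11:38720001-39040000 was replicated in 2 window cells at d7 (1.98%, 0.241 to 6.97%) and 0 of 59 at d0, which allows a share of up to 5.08%, but in 9 of 26 EpiSCs (34.6%, 17.2 to 55.7%).

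Cells of 1 group agreed more closely on chromosome 11 than elsewhere. Among pairs of window cells with scores no more than 5 points apart, the median percentage of bins called alike on chromosome 11 was 86.9% at d7, 86.4% in EpiSCs and 88.9% at d0, against 82.3%, 83.1% and 84.8% on the other autosomes. Chromosome 11 was the more alike in 1497 of 1543 pairs at d7, 89.8% of EpiSC pairs and 502 of 564 pairs at d0. Pairs share cells, and a chromosome that is mostly replicated leaves less room for calls to differ.

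In the 72 G1 cells placed in a group, which should have nothing replicated, a median of 0% of the called chromosome 11 bins were called replicated (range 0 to 23.5%), against 0.165% on the other autosomes (range 0 to 9.91%).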

How the data were processed

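The table of calls and the cell list were used as deposited. Calls were made by the authors, per the file headers, after a mappability correction against merged G1 controls, with every 80 kb bin coded as 1 (replicated), -1 (not replicated) or 0 (no data). The tools named in the submitters' processing notes are BWA 0.7.10-r789, Picard and cutadapt, with mm9 as the build. The deposited replication score is a fraction, recomputed here from the calls with a largest difference of 5.00e-08 points. Read depth was not used here. Chromosome 11 bins called per cell are given instead, with group medians of 1483 to 1486 and a maximum of 1486. Their relation to depth was not tested.

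Groups came from the titles; 7 G1 cells whose title named another day than their other labels were left out. Shares used bins called in at least 50% of a group's window cells. Named were all chromosome 11 runs of at least 5 bins past the difference of 0.3 (at most 10 per direction for d7 and d0, 5 for other pairs), the 5 longest shorter runs where a direction had fewer than 3 such runs, constant late runs of at least 800 kb and the 8 longest constant early runs. The members, rules and alternatives were chosen with earlier results of these data known. The size rule for d7 against d0 was tested on simulated calls, drawn independently for each bin and cell. The step that joins bins into runs was tested on small made-up examples. The simulated calls lacked the blocks seen in the data. Python 3.11.15, numpy, pandas, scipy and matplotlib were used. No mm9 genome or annotation was used here, so no sequence is printed.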

Additional observations from a re-analysis of the deposited data

How the results depend on the processing

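The settings were listed with earlier results of these data known. Leaving out the cells marked by the authors, or the cells that did not follow the mean profile of chromosome 11 (alone or within the present series), was chosen after seeing these files. The 36 named regions are counted per comparison, so some recur or overlap between comparisons. All kept their direction under each alternative run for them, and those that did not keep a difference of 30 points are named in the text. Those alternatives reuse window cells that chose the regions, so a kept direction was largely given in advance. The lengths given next, in Mb of 80 kb bins, differed by more than 1.5 times from those in the text. For d7 against d0, present-series cells gave 28.56 Mb earlier and 8.16 Mb later, and those of them that followed the mean profile of chromosome 11 gave 8.96 Mb later. A difference of 0.4 gave 5.52 Mb earlier and 1.12 Mb later, a difference of 0.2 gave 6.96 Mb later, and a midpoint shift of 30 points over S phase gave 2.08 Mb earlier and 1.28 Mb later. For EpiSC against d0, scores of 45 to 65% gave 7.68 Mb earlier, a difference of 0.2 gave 8.4 Mb earlier and 4.8 Mb later, a difference of 0.4 gave 2.16 Mb earlier, and the midpoint shift gave 0.8 Mb earlier and 0.56 Mb later. Against d0, scores of 45 to 65% gave 2.24 Mb earlier and 3.36 Mb later for d2, 4.48 Mb earlier for d3, 2.56 Mb earlier and 1.6 Mb later for d4, and 7.92 Mb earlier for d5. Cells matched in score gave 2.08 Mb earlier and 3.36 Mb later for d2, 4.88 Mb earlier for d3 and 3.2 Mb earlier for d4. With limits of 0.9 and 0.1, 34.96 Mb were early and 3.6 Mb late in all 8 groups. A stricter difference or limit leaves fewer bins by construction; for the other settings the cause was not tested. The authors' filters marked 4 window cells, without which 8.8 Mb were earlier and 3.68 Mb later in d7 than in d0.

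No paired analysis was possible because numbers in the titles restart in every sorting gate and only name cells. The groups of d3, d4, d5 and d6 had 13 to 21 window cells, which limits the precision of their shares.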

Other observations

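In 4 of the 72 G1 cells, more than 10% of the called chromosome 11 bins were called replicated. The cell at d2 had 23.5% on chromosome 11 and 9.91% on the other autosomes, the cell at d4 had 21.2% and 8.35%, the cell at d6 had 11.6% and 3.61%, and the cell at d7 had 17.6% and 6.60%. Chromosome 11 was the most replicated autosome in each of these 4 cells. Between 84.7% and 91.1% of the bins so called were among the 687 bins early in all 8 groups. That class held 46.3% of the chromosome 11 bins with a value in all 8 groups. The 7 G1 cells placed in no group had between 0% and 0.336% of chromosome 11 called replicated.

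Of the 12 S-phase cells in which chromosome 11 was behind the other autosomes, all 12 came from the present series and 5 were window cells. The widest gap was in a d5 cell with a score of 33.5%, in which 5.85% of chromosome 11 and 34.6% of the other autosomes were replicated. In 3 d0 window cells, chromosome 11 was 14.1, 16.3 and 24.5 points behind the other autosomes. At the other end, a d7 window cell with a score of 44.1% had 84.7% of chromosome 11 and 41.8% of the other autosomes replicated, and a d7 cell with a score of 70.7% had all of its called chromosome 11 bins and 69.2% of the other autosomes replicated.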
